A study of Mus musculus with 8 samples.

Results

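Vpreb1, Vpreb2 and Igll1 encode the surrogate light chain of the pre-B cell receptor, and Vpreb3 encodes a related immunoglobulin-like protein of B cell precursors. They were followed here on microarrays of bone marrow cultures from 4 genotype groups. The members were all probes that carry one of these 4 gene names in the scanner files, which gave 4 genes of the 21505 with a symbol and 6 probes of 41174: 1 for Vpreb1, 1 for Vpreb2, 2 for Igll1 and 2 for Vpreb3. All 6 were well above background on all 8 arrays, none was saturated, and all 6 entered the tests.

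A B cell precursor that has joined a heavy chain gene has no conventional light chain yet. The products of Vpreb1 or Vpreb2 and of Igll1 (lambda5) stand in for it, pair with the heavy chain and form, with Cd79a and Cd79b, the receptor whose signal lets the cell divide and go on to rearrange its light chain genes. The product of Vpreb3 is not a chain of that surface receptor; it is known to bind newly made immunoglobulin chains inside the cell. Bob1, encoded by Pou2af1, is a B cell coactivator that is recruited to octamer DNA motifs by the Oct1 and Oct2 factors, and miR-146a is a microRNA known as a brake on inflammatory signalling.

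Marrow was flushed from the femurs of C57BL/6 mice at 10 weeks of age and cultured for 5 days with IL-7, a cytokine that supports B cell precursors, in medium that held 10% serum. The groups were Bob1-/- mice (Bob1 knockout), Bob1+/+ mice (Bob1 wild-type), miR-146a knockout mice, and wild-type mice labelled C57BL/6Ncrl (BL6 wild-type), with 2 cultures in each. Replicate A was female and replicate B male throughout. All 8 cultures shared the IL-7 medium, and the labels' protocols mention no sorting of cells. The number of mice behind each culture is not stated beyond the words biological duplicates, so a p-value here measures the spread between cultures. The 8 arrays lay on 2 slides: both Bob1 wild-type arrays were on slide 1, both Bob1 knockout arrays on slide 2, and each of the other groups had 1 array on each slide.

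The sequences that bear on these genes are the 60-base probes that read them and the stretches upstream of their starts. Probe sequences come from the scanner files, with the mm9 coordinates given there, and promoter windows come from RefSeq (GRCm38.p6), where all 4 genes were matched. The Vpreb3 probe A_51_P375789 lies at chr10:75412043-75412102 on the plus strand and starts at base 253 of transcript NM_009514. The Igll1 probe A_52_P493519 lies at chr16:16861104-16861163 on the minus strand and starts at base 470 of NM_001190325. The Vpreb2 probe A_52_P222003 starts at base 31 of NM_016983. Its 60 bases span 147 bases of the plus strand, chr16:17980689-17980835, so that the probe crosses a gap of 87 genomic bases. These 3 probes are printed because they read the 3 kinds of chain, in lower case with no part marked.
Vpreb3 A_51_P375789: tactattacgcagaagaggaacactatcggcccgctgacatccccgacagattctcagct
Igll1 A_52_P493519: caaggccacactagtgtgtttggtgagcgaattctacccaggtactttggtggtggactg
Vpreb2 A_52_P222003: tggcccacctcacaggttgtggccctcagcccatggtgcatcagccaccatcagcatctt

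The other 3 probes are given by place only. The Vpreb1 probe A_51_P400217 lies at chr16:16868559-16868618 on the minus strand and starts at base 643 of NM_016982. The second Igll1 probe, A_52_P273394, lies at chr16:16862273-16862332 on the minus strand and is assigned to transcript ENSMUST00000124649. The second Vpreb3 probe, A_52_P433847, lies at chr10:75412265-75412324 on the plus strand and starts at base 475 of the same transcript as the first. Vpreb1 and Igll1 are next to each other on chromosome 16, Vpreb2 is elsewhere on that chromosome, and Vpreb3 is on chromosome 10. Placement of the probes in exons or untranslated regions was not assigned here, because no annotation of mm9 was used.

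The stretch before the start of Vpreb3 is shown because it holds the octamer, the motif that the Oct factors bind. It is chr10:75948150-75948299 of GRCm38.p6, plus strand, 150 bases that end just before the start, with the octamer in capitals.
Vpreb3 upstream: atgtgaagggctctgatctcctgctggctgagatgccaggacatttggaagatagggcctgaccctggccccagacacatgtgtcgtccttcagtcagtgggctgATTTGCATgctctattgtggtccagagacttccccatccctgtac
The match, chr10:75948255-75948262, runs from 45 to 38 bases before the start and reads ATGCAAAT on the minus strand. Windows of 300 bases (250 before the start and 50 after it) were searched on both strands for ATGCAAAT, and 570 of 32851 windows in the table, 1.74%, held it. None of the windows of Vpreb1, Vpreb2 and Igll1 held it, with at least 2, 3 and 2 mismatches respectively. The E2A E-box CAGGTG, which 20.2% of all windows held, had 1 match each in Vpreb1 (88 bases before the start), Vpreb2 (232 bases before) and Igll1 (8 bases before, minus strand) and none in Vpreb3. The matches of Vpreb1 and Vpreb2 are the same site of the stretch, printed below, that both genes share, and so are not separate. These are matches of letters in 1 window a gene and describe nothing beyond it.

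The upstream stretches of Vpreb1 and Vpreb2 are shown because the genes are near copies of each other. Their windows shared 156 bases, shifted by 144 bases relative to the annotated starts, and 153 of these were identical (98.1%). The first 106 bases of that stretch, chr16:16869256-16869361 on the minus strand for Vpreb1 and chr16:17980315-17980420 on the plus strand for Vpreb2 (GRCm38.p6), differ at 2 positions, in capitals. Counted from 1 at the left, with the Vpreb1 base first, they are G12T and C104T.
Vpreb1 upstream: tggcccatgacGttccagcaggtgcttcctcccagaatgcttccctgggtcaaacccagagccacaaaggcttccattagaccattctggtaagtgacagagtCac
Vpreb2 upstream: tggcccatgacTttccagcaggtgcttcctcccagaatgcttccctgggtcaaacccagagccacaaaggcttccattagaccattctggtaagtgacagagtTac
These are upstream stretches, and it was not checked whether either probe matches the transcript of the other gene. RNA of either gene may bind the probe of the other, so the values of Vpreb1 and Vpreb2 may not be fully separate.

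In the levels that follow, each value is the log2 of the probe's signal minus the 75th percentile of its array, so that 0 is that percentile and 1 unit is a factor of 2. Levels of different probes cannot be set against each other, because each probe binds with its own strength. That percentile was 494 to 782 intensity units, and the share of probes well above background ran from 60.5% to 66.1%. Pou2af1, the gene for Bob1, stood at 2.71 and 2.82 in the Bob1 knockout cultures and at 6.4 to 6.72 in the other 6. Tests were run with limma over 26530 probes, with Benjamini-Hochberg adjustment and a threshold of 0.05 on the adjusted p; a probe past it is said to have risen or fallen. Between Bob1 knockout and Bob1 wild-type, 1463 probes passed (5.51%), 740 upward (2.79%) and 723 downward (2.73%), and the median difference over all tested probes was 0.11.

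Vpreb3 was the member that fell in Bob1 knockout cultures, by 7.28-fold on one probe and 5.90-fold on the other. No probe of Vpreb1, Vpreb2 or Igll1 passed the threshold in either direction. Thus 2 of 6 member probes fell, beside 2.73% of all probes, and 0 rose, beside 2.79%. At an unadjusted p under 0.05, 3 of the 4 surrogate light chain probes were higher, as were 17% of all probes. In miR-146a knockout cultures none of the 6 probes passed the threshold.

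Probe A_51_P375789 of Vpreb3 stood at 6.77 and 6.72 in Bob1 wild-type (replicates A and B), at 4.28 and 3.49 in Bob1 knockout, at 6.67 and 6.80 in BL6 wild-type, and at 6.79 and 6.62 in miR-146a knockout. Both knockout arrays lay far below the other 6, which were within a narrow band. The group means were 6.75 ± 0.04 (SD, n = 2) in Bob1 wild-type and 3.88 ± 0.56 (SD, n = 2) in Bob1 knockout. The difference was -2.86 (SE 0.25, 95% interval -3.46 to -2.26, limma adjusted p = 0.00283), the 121st most negative of the 26530 probes.

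Probe A_52_P433847, further along the same transcript, gave the same picture. It stood at 8.17 and 8.21 in Bob1 wild-type, at 5.92 and 5.33 in Bob1 knockout, at 8.20 and 8.39 in BL6 wild-type, and at 8.22 and 8.13 in miR-146a knockout. The knockout arrays were again the lowest pair, and again replicate B was lower than replicate A. The difference was -2.56 (SE 0.20, 95% interval -3.05 to -2.08, limma adjusted p = 0.00208). The probes read the same gene and the same RNA, so they are not independent of each other.

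The fall was also plain before any scaling. The intensity of A_51_P375789 was 9593 and 6990 units in the knockout cultures and 66740 to 83830 in the other 6. That of A_52_P433847 was 29900 and 25030 units against 190500 to 231100. The transcript remained detectable: on both knockout arrays both probes were well above background. In bulk RNA, fewer cells that carry a transcript and less of it in each cell cannot be told apart.

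**Figure D1:**
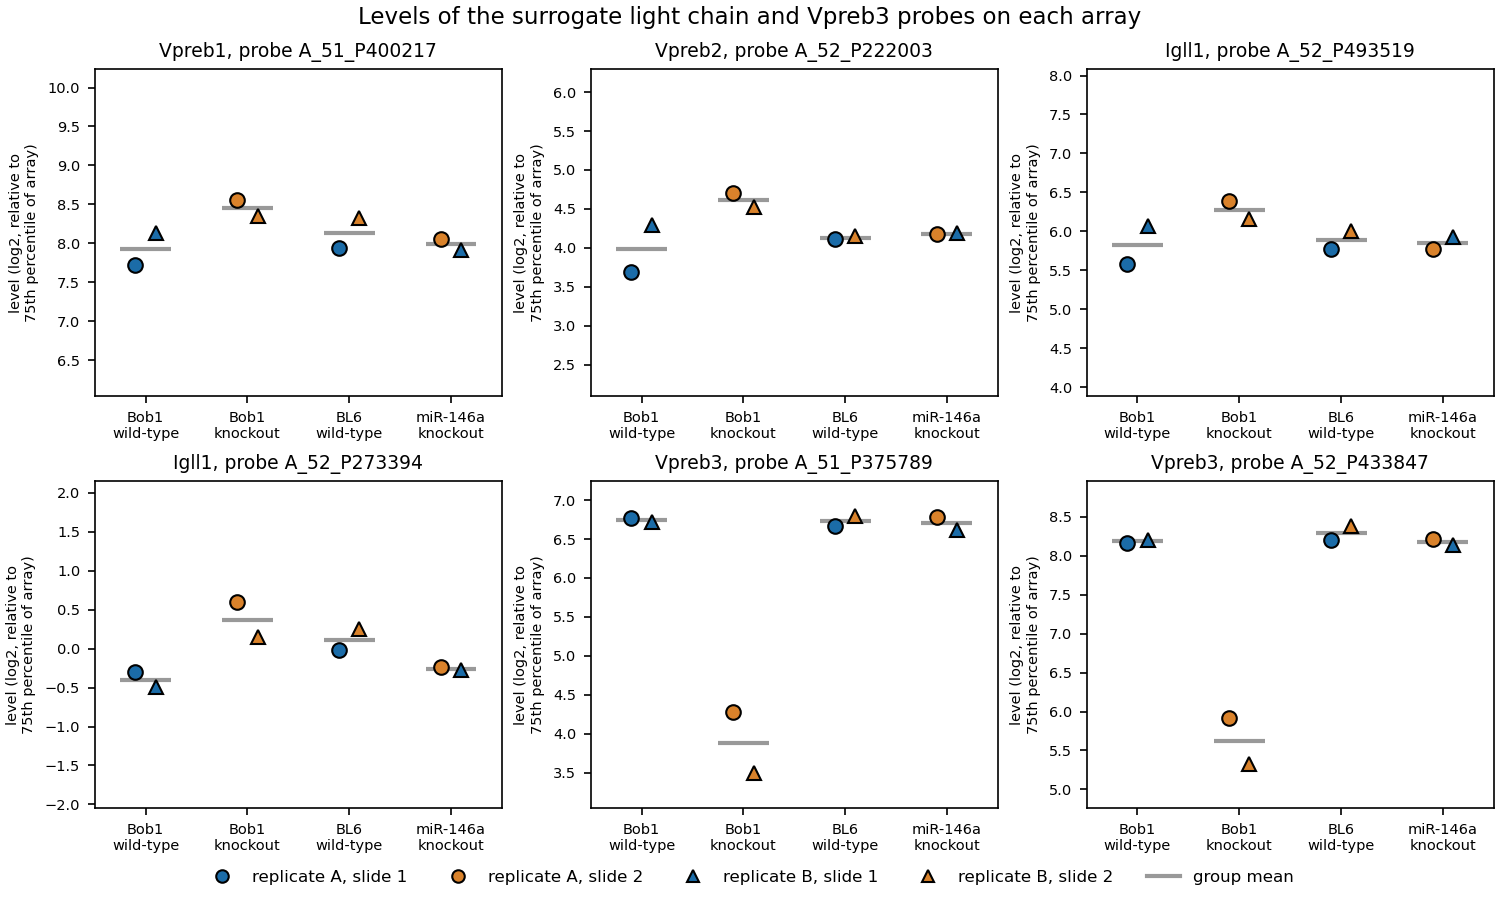
Levels of the 6 probes on each array (y axis, log2 relative to the 75th percentile of the array, the same span of 4.2 units in every panel) in the 4 genotype groups (x axis); circles are replicate A, triangles replicate B, colours the slide, and grey lines the means of 2 arrays. Both Vpreb3 probes are low only on the 2 Bob1 knockout arrays, at 4.28 and 3.49 and at 5.92 and 5.33, while the points of the other 4 probes lie close together.

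Vpreb1 is one of the genes for the variable-like chain of the surrogate light chain. It stood at 7.72 and 8.13 in Bob1 wild-type, at 8.55 and 8.35 in Bob1 knockout, at 7.93 and 8.32 in BL6 wild-type, and at 8.05 and 7.92 in miR-146a knockout. The knockout arrays were the highest pair, though replicate B of the knockout and replicate B of BL6 wild-type were close. The difference of 0.53 (SE 0.20, 95% interval 0.05 to 1.01) did not pass (limma adjusted p = 0.153), and 11.2% of all probes had a larger one.

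Vpreb2, its near copy, stood at 3.69 and 4.30 in Bob1 wild-type, at 4.70 and 4.52 in Bob1 knockout, at 4.11 and 4.15 in BL6 wild-type, and at 4.17 and 4.19 in miR-146a knockout. The lowest value was that of Bob1 wild-type replicate A, and the 2 wild-type replicates were farther apart than the 2 of any other group. The difference of 0.62 (SE 0.21, 95% interval 0.13 to 1.11) did not pass (limma adjusted p = 0.121).

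Igll1 encodes lambda5, the constant-like chain that is bound to the heavy chain. Probe A_52_P493519 stood at 5.58 and 6.07 in Bob1 wild-type, at 6.39 and 6.16 in Bob1 knockout, at 5.77 and 6.00 in BL6 wild-type, and at 5.78 and 5.92 in miR-146a knockout. The difference of 0.45 (SE 0.20, 95% interval -0.03 to 0.92) did not pass (limma adjusted p = 0.201). Probe A_52_P273394 stood at -0.30 and -0.49 in Bob1 wild-type, at 0.60 and 0.15 in Bob1 knockout, at -0.02 and 0.25 in BL6 wild-type, and at -0.24 and -0.28 in miR-146a knockout. Here replicate B of the knockout lay below replicate B of BL6 wild-type, so that the knockout arrays overlapped the others. Its difference was the largest upward one among the members, 0.77 (SE 0.19, 95% interval 0.33 to 1.22), and fell short of the threshold (limma adjusted p = 0.0636). It passed in 2 alternatives: a test of probes well above background on all 8 arrays (adjusted p = 0.0465) and a normexp background correction without the 15 spots that lay under their local background (adjusted p = 0.0194).

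All 4 surrogate light chain probes thus had higher means without Bob1, by 0.45 to 0.77, against a median of 0.11 over all probes. Such a shift was common: both knockout arrays lay above the other 6 for 25.8% of all probes, and among the members this held for 3 (Vpreb1, Vpreb2 and Igll1 A_52_P493519). Both lay below the other 6 for 14.3% of all probes, and among the members for both Vpreb3 probes. The upward separation depended on scaling. In unscaled intensities it held for 2.62% of all probes and for 0 members, with Vpreb1 at 185400 and 202300 units in the knockout cultures and 160100 to 218600 in the others. After quantile normalization it held for Vpreb2 alone, beside 22.7% of all probes, and in the authors' deposited value table also for Vpreb2 alone, beside 21.8%. The downward separation of both Vpreb3 probes held under all 7 versions of the values that were compared. In these it held for 14.3% (75th percentile), 32% (unscaled), 15.8% (quantile), 13.4% (median), 9.34% and 2.77% (normexp without and with those 15 spots) and 14.3% (deposited table) of all probes.

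Because the Bob1 groups lay on different slides, the difference was also taken with slide as a block and within slide 2. With the block, 124 of 26530 probes passed between Bob1 knockout and Bob1 wild-type (0.467%). Vpreb3 A_52_P433847 still fell (-2.70, limma adjusted p = 0.0445), as did 0.369% of all probes, and A_51_P375789 narrowly missed the threshold at a difference of -3.01 (adjusted p = 0.0559). Within slide 2, the knockout arrays were set against the BL6 wild-type and miR-146a knockout arrays of that slide. There 0.746% of all probes fell, and both Vpreb3 probes fell, by -2.91 (limma adjusted p = 0.0362) and -2.68 (adjusted p = 0.0298). A comparison against all 6 other arrays with slide as a block was added after the data were seen. Both knockout arrays lie on slide 2, so its estimates are by design those within slide 2, -2.91 and -2.68. The slide 1 arrays add only to the estimate of the spread. Both Vpreb3 probes passed there (limma adjusted p = 0.000711 and 0.000418), beside 3.64% of all probes that fell. The size of the Vpreb3 difference moved little between the comparisons without the block, with it and within slide 2.

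The upward differences of the surrogate light chain probes did not pass in any of these 3 versions. Vpreb1 differed by 0.27 with the block and by 0.26 within slide 2 (limma adjusted p = 0.754 and 0.46), against 0.53 without account of the slide. Vpreb2 differed by 0.61 and 0.45, Igll1 A_52_P493519 by 0.40 and 0.38, and Igll1 A_52_P273394 by 0.62 and 0.37. For Vpreb1 the interval within slide 2 ran from -0.20 to 0.72, which covers no change as well as a rise of the size first given. Without the block, against all 6 other arrays, Vpreb2 passed at 0.51 (limma adjusted p = 0.0441), beside 14.5% of all probes that rose.

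**Figure D2:**
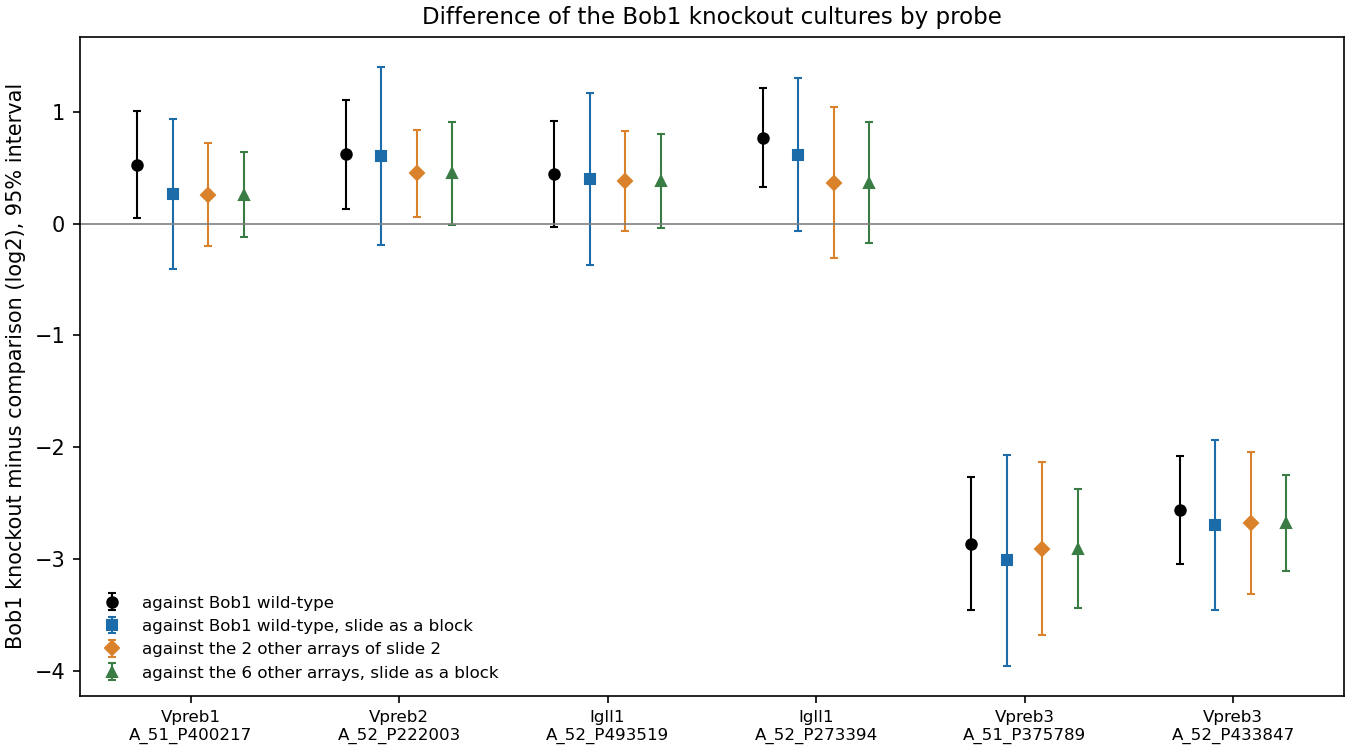
Difference of the Bob1 knockout arrays (y axis, log2, with 95% intervals) for each of the 6 probes (x axis), against Bob1 wild-type without and with slide as a block, against the 2 other arrays of slide 2, and against all 6 others with slide as a block. The Vpreb3 probes lie between -3.01 and -2.56 in all 4 versions, and the intervals of Vpreb1 reach 0 in all but the first. The last version has by design the same estimates as the one within slide 2, and only its intervals differ.

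Within an array, Vpreb1, Vpreb2 and Igll1 A_52_P493519 kept nearly the same distance from each other while Vpreb3 moved away from them. The Igll1 A_52_P493519 level minus the Vpreb1 level was -2.14 and -2.06 in Bob1 wild-type and -2.17 and -2.19 in Bob1 knockout, a change of -0.08. Vpreb2 minus Vpreb1 changed by 0.09. For Vpreb3 A_51_P375789 minus Vpreb1 the values were -0.94 and -1.40 in Bob1 wild-type and -4.27 and -4.86 in the knockout, a change of -3.39. These differences need no scaling between arrays; those between probes show unequal change and not relative abundance. Over the 8 arrays, after each probe's mean was taken off, the root mean square difference between profiles was 0.10 to 0.13 among Vpreb1, Vpreb2 and Igll1 A_52_P493519, 0.13 between the Vpreb3 probes, and 1.32 to 1.49 between Vpreb3 and the others. Igll1 A_52_P273394 stood farther from the other surrogate light chain probes, at 0.21 to 0.28.

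The miR-146a comparison asked whether the microRNA's loss affects these genes in the same cultures. All 6 differences between miR-146a knockout and BL6 wild-type lay between -0.38 and 0.05, and none passed (limma adjusted p = 1 for each; 0.0716% of all probes passed). At an unadjusted p under 0.05 the count was 0 of 6 as well, beside 2.7% of all probes. For Vpreb3 the differences were -0.03 (95% interval -0.63 to 0.57) and -0.12 (-0.60 to 0.37). For Vpreb1 the difference was -0.14 (95% interval -0.62 to 0.34) and for Vpreb2 0.05 (-0.44 to 0.55). Within each slide, with 1 array against 1 and no test, Vpreb1 differed by -0.02 and -0.27 and Vpreb3 A_51_P375789 by -0.05 and -0.01. On slide 1 a male knockout culture was set against a female wild-type culture, and on slide 2 the reverse. Genotype and sex cannot be told apart within a slide. The widest difference between the group means was that of Igll1 A_52_P273394 (-0.38, 95% interval -0.82 to 0.07).

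The 2 wild-type groups gave the spread between colonies. Bob1 wild-type differed from BL6 wild-type by 0.02 and -0.11 on the Vpreb3 probes, by -0.21 for Vpreb1, -0.14 for Vpreb2, and -0.06 and -0.51 for the Igll1 probes. None passed (limma adjusted p = 1 for each), beside 0.0339% of all probes, and 1 had an unadjusted p under 0.05, beside 2.13%. The last value, for Igll1 A_52_P273394 (95% interval -0.96 to -0.07), was the widest gap between wild-type groups among the members. Both Bob1 wild-type arrays lay on slide 1, and with slide as a block that gap was -0.44 (95% interval -0.98 to 0.10). This comparison shares the Bob1 wild-type arrays with the Bob1 comparison and the BL6 wild-type arrays with the miR-146a comparison.

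The Bob1 effect on Vpreb3 differed from the miR-146a effect by -2.83 on A_51_P375789 and by -2.44 on A_52_P433847 (limma adjusted p = 0.0193 and 0.0163), where 1.49% of all probes passed. With slide as a block neither passed (adjusted p = 0.131 and 0.113), at -2.98 and -2.58, beside 0.226% of all probes. Nor did they pass without any 1 array of the groups other than Bob1 knockout (adjusted p up to 0.0925 and 0.0827), at differences from -2.92 to -2.75 and from -2.54 to -2.35. None of the other 4 probes passed this test of the difference. Their values ran from 0.48 for Igll1 A_52_P493519 to 1.15 for A_52_P273394, where the adjusted p was 0.1.

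**Figure D3:**
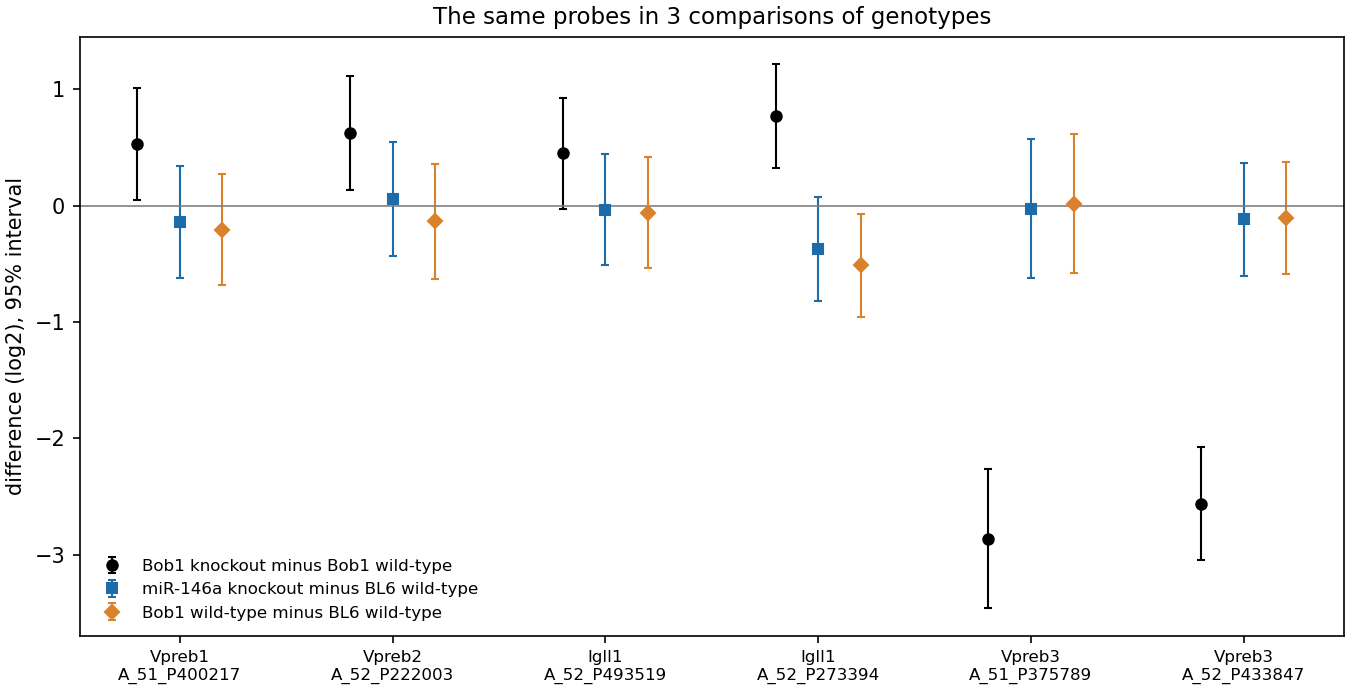
Differences of the 6 probes (y axis, log2, with 95% intervals) between Bob1 knockout and Bob1 wild-type, miR-146a knockout and BL6 wild-type, and the 2 wild-type groups. Apart from Vpreb3 at -2.86 and -2.56 in the Bob1 comparison, all values lie between -0.51 and 0.77.

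Other genes of the pre-B cell receptor were taken from a list of 22 chains and signalling proteins, all tested. Of these, 1 rose and 3 fell between Bob1 wild-type and Bob1 knockout, with a median difference of -0.17 against 0.11 over all probes. The partners of the surrogate light chain differed little: the heavy chain gene Ighm by -0.17 (limma adjusted p = 0.452) and Cd79a by -0.33 (adjusted p = 0.283). Cd79b, the other signalling chain, fell by 1.39 on the log2 scale (limma adjusted p = 0.0107). Syk, the kinase that binds the signalling chains, stood at -0.59 (adjusted p = 0.0979) and the adaptor Blnk at 0.16 (adjusted p = 0.508), neither past the threshold. The adaptor Bank1 fell by 3.59 (limma adjusted p = 0.00128). Cd22, an inhibitory receptor, rose by 0.61 (adjusted p = 0.0452) and was lost when any of the 8 arrays was left out. With slide as a block 2 of the 22 passed, Bank1 among them, but neither Cd79b nor Cd22 did (limma adjusted p = 0.0784 and 0.466). Without either Bob1 wild-type array Cd79b was lost too, at an adjusted p of up to 0.0573.

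Of 22 transcription factors of the B lineage, 1 rose and 1 fell, with a median of 0.07. The factors known to drive the surrogate light chain genes did not pass: Ebf1 differed by 0.12 (limma adjusted p = 0.597), Tcf3, which encodes E2A, by 0.14 (adjusted p = 0.553) and Pax5 by 0.41 (adjusted p = 0.296). Ikzf1 and Ikzf3, known as repressors of these genes, stood at 0.19 and 0.29 (adjusted p = 0.641 and 0.197). Irf4, which acts at the pre-B cell stage, rose by 1.09 (limma adjusted p = 0.0134), and Irf8, its relative, fell by 0.64 (adjusted p = 0.0295). Neither passed with slide as a block. Irf8 lost its call without any 1 of the 8 arrays, and Irf4 without either Bob1 wild-type array or without Bob1 knockout replicate A.

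Of 18 genes that mark the pro-B and pre-B stages, 3 rose and 1 fell, with a median of 0.08. Those that rose were Cd24a by 1.08 (limma adjusted p = 0.00568), Rag2, a subunit of the recombinase, by 1.08 (adjusted p = 0.014) and the IL-7 receptor chain Il7r by 0.80 (adjusted p = 0.0327). Cd2, a surface marker, fell by 2.09 (limma adjusted p = 0.00525). Dntt, the polymerase that adds bases at heavy chain joints, stood at 0.02 and Rag1 at -0.44 (adjusted p = 0.976 and 0.189). None of the 18 passed with slide as a block. Rag2 was lost without either Bob1 wild-type array or Bob1 knockout replicate A, and Il7r without any 1 array of the groups other than miR-146a knockout.

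Genes of immature and mature B cells moved most. Of 20 tested, 12 fell and 0 rose, with a median of -1.75. The B cell surface protein gene Ms4a1 (CD20) fell by 5.40 on the log2 scale (limma adjusted p = 0.00111), the IgM receptor Fcmr by 4.54 (adjusted p = 0.0108), and H2-DMb2, of the MHC class II loading machinery, fell by 4.78 on that scale (adjusted p = 0.0378; above background on 1 of the 2 knockout arrays, so the size of that fall is uncertain). Of the costimulatory and antigen presentation genes, Cd83 fell by 2.51, Cd40 by 2.39, the class II activator Ciita by 2.39, the invariant chain Cd74 by 2.31 and H2-Aa by 1.76. The last 4, all receptors or ligands but Cd55, a complement regulator, were Cd55 (-1.74), Ltb (-1.63), Il4ra (-1.36) and S1pr1 (-1.15), with adjusted p from 0.00677 to 0.0353. Of the 20, 4 passed with slide as a block (Ms4a1, Cd40, Ciita and Cd74). With single arrays left out, 7 to 11 genes of the list were called, the fewest without Bob1 wild-type replicate A, and H2-DMb2, Fcmr, Ltb, Il4ra and S1pr1 lost their call in at least 1 case. Of 7 conventional light chain genes, 1 could be found by symbol: Iglv1, a lambda variable gene, fell by 6.05 (limma adjusted p = 0.000713).

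**Figure D4:**
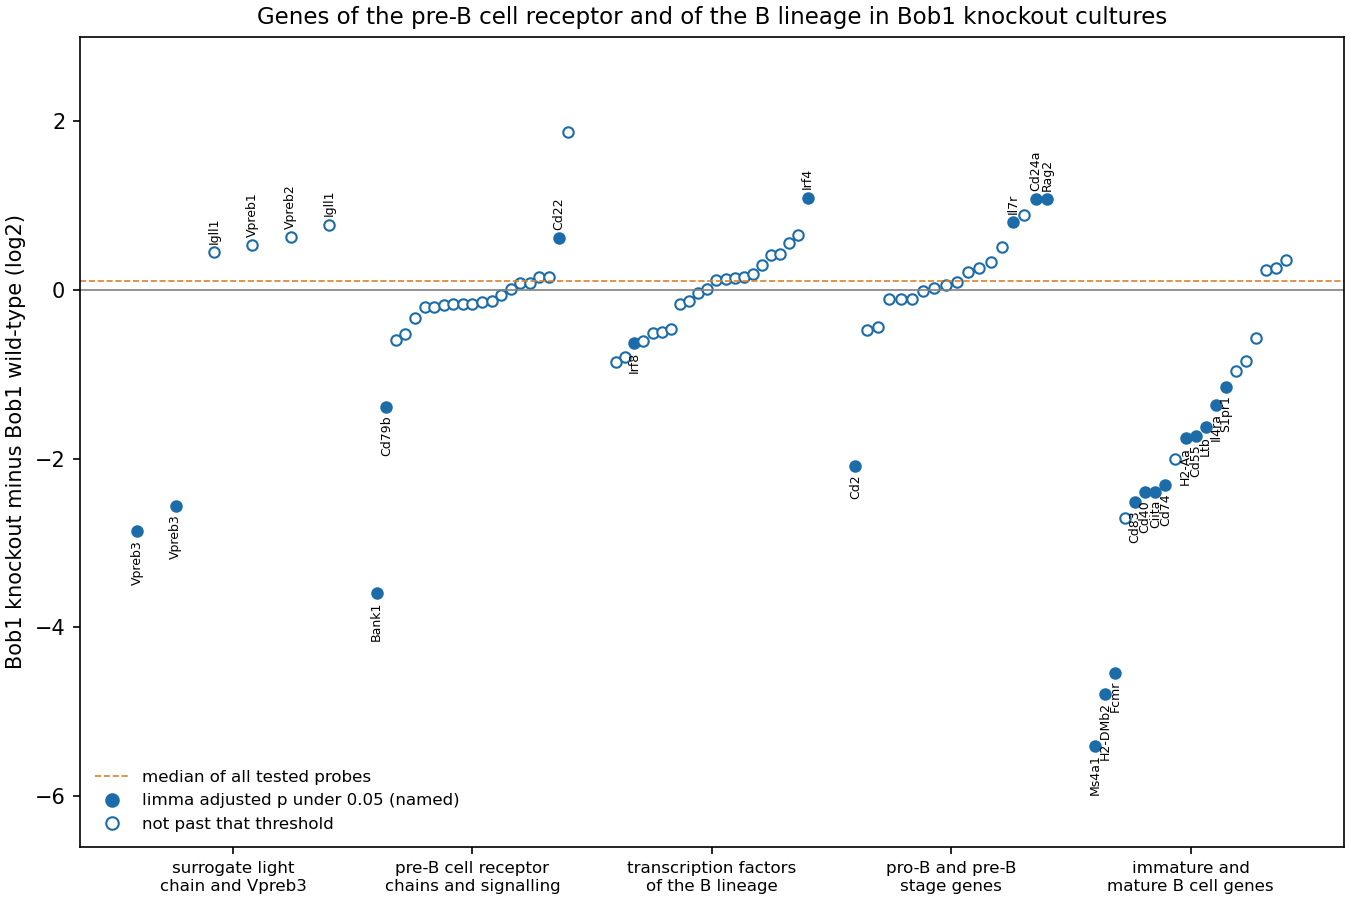
Difference between Bob1 knockout and Bob1 wild-type (y axis, log2) for the 6 member probes, all named, and for the genes of 4 lists, without 1 gene that is not reported here; filled points passed the limma threshold, and the dashed line is the median of all tested probes, 0.11. Both Vpreb3 points lie below -2.5, below those of Cd83, Cd40 and Ciita, and the other member points lie between 0.45 and 0.77.

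Markers of the cell types that such cultures can hold were summed per array, in multiples of the 75th percentile. The B lineage sum over 6 markers, all above background on 8 arrays, was 204 to 222 in Bob1 knockout and 187 to 227 in the other groups. That of 11 T and NK markers was 13.2 to 25.2 in Bob1 knockout and 28.7 to 34.4 in the others, with 1 of 11 past the threshold, downward. The sum of 11 myeloid markers was 966 to 1291 in Bob1 knockout and 1186 to 1514 in the others, with 1 of 11 past the threshold, downward. That of 5 megakaryocyte markers was 53.5 to 77.8 against 85.9 to 161.7, with 0 of 5 past it. Such sums follow their brightest probes. By gene, the median Bob1 difference was 0.06 for B lineage markers (4 higher, 2 lower) and -1.1 for T and NK markers (0 higher, 11 lower). It was -0.93 for myeloid markers (1 higher, 10 lower) and -0.87 for megakaryocyte markers (0 higher, 5 lower), against 0.11 over all probes. Plasma cell markers summed to 5.6 to 6.46 against 6.39 to 10.6; of 4, Jchain, the joining chain of secreted antibodies, fell by 3.77 (limma adjusted p = 0.00116, and 0.0358 with slide as a block), and Sdc1 rose by 1.07 (adjusted p = 0.00684, and 0.134 with slide as a block). The sums of erythroid (0.87 to 1.01 against 0.96 to 2.95), dendritic (1.1 to 1.67 against 1.36 to 4.10), mast cell and basophil (5.73 to 6.35 against 6.03 to 22.2) and stromal or endothelial markers (1.90 to 9.86 against 2.69 to 11.6) overlapped between the groups, with 1 stromal or endothelial marker past the threshold, downward, and with Lepr not above background on any array. In that order the medians by gene were 0.09, -0.46, -0.81 and -1.11. The part of all these cell types in the member differences was not tested.

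The genes around the members were read in the same fit, taking the 5 on either side. Of 30 such genes that are not members, 25 were tested and 3 passed, all upward and all around Vpreb3, beside 2.79% of all probes that rose. They were Chchd10, a mitochondrial protein gene next to Vpreb3, which rose by 0.86 (limma adjusted p = 0.0272), Mmp11, a metalloproteinase gene, by 1.41 (adjusted p = 0.00752), and Zfp280b, a zinc finger gene, by 0.88 (adjusted p = 0.0216). With slide as a block none of the 3 passed (adjusted p = 0.344, 0.148 and 0.234). Gm5134, on the other side of Vpreb3, stood at 1.24 (adjusted p = 0.0718). So no tested neighbour of Vpreb3 fell with it.

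Around the surrogate light chain genes no neighbour passed, beside 5.51% of all probes, a share at which so few genes may well give no call. Slc25a1 and Dgcr6, on either side of Vpreb2, stood at 0.65 and -0.13 (limma adjusted p = 0.105 and 0.517). Top3b, next to Vpreb1, stood at 0.32 (adjusted p = 0.149), and Fgd4, the nearest tested gene beyond Igll1, at -0.89 (adjusted p = 0.187). The upward difference of Slc25a1, a mitochondrial carrier gene, was thus as large as that of Vpreb2 beside it.

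**Figure D5:**
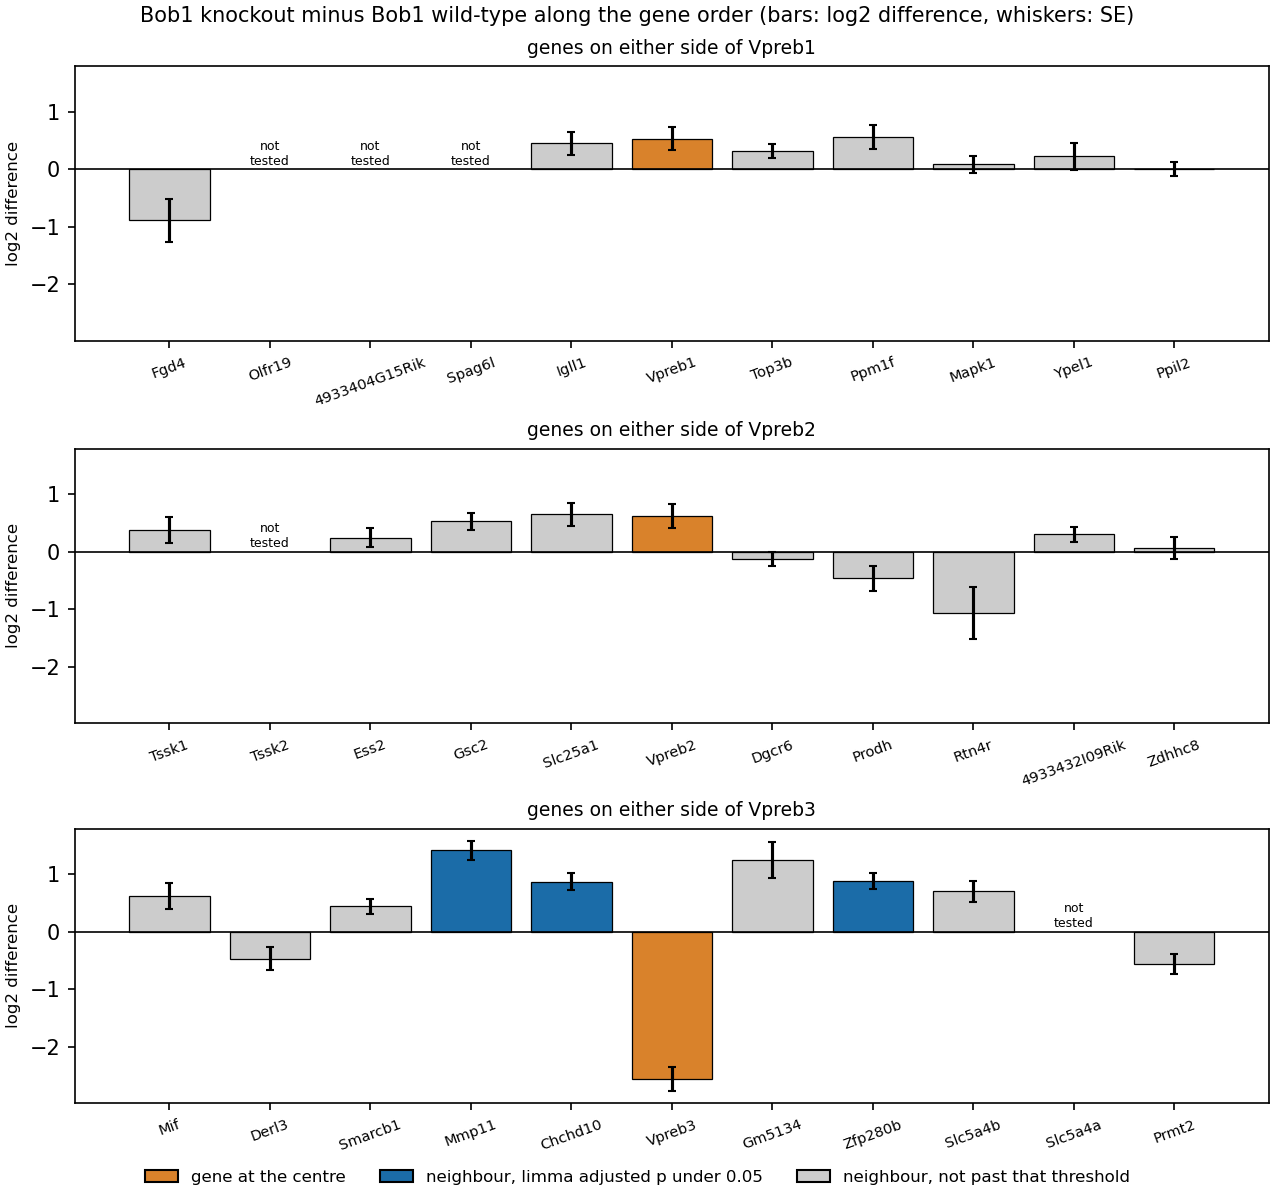
Difference between Bob1 knockout and Bob1 wild-type (y axis, log2; whiskers are SE) for Vpreb1, Vpreb2 and Vpreb3 (probe A_52_P433847) and the 5 genes on either side of each, in their order along the chromosome (x axis, not to scale). Among the genes around it Vpreb3 is the one bar under -2, and Mmp11, Chchd10 and Zfp280b rose.

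The genes most like each member were those with the smallest root mean square difference of the profile over the 8 arrays, each gene centred on its own mean. For Vpreb3 A_51_P375789 they were Tmem163 (0.12), Lynx1 (0.12), Gramd3 (0.20), LOC634749 (0.22) and Abca6 (0.23). For the other Vpreb3 probe the same 4 led, with Tmem255a in the fifth place (0.20). All of these fell between Bob1 wild-type and Bob1 knockout, as likeness to a gene that fell requires. LOC634749 and Abca6 were well above background on neither knockout array, so the size of their fall is uncertain. Tmem163 went from 1.30 and 1.06 to -1.25 and -1.88. Of the 6 genes, 2 (Tmem163 and Tmem255a) were in the promoter table, and neither window held the octamer. Among genes with a window there, 12 of 263 that fell held it (4.56%), 8 of 301 that rose (2.66%) and 191 of all 11064 tested (1.73%). Vpreb3 itself is counted among the 12, and the difference between these shares was not tested.

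For the surrogate light chain the nearest profiles were closer, in a measure that is not scaled to how far a probe moved. Probes that moved little find smaller differences, so this closeness does not show a tighter likeness. Those of Vpreb1 were Grk4, Sost, Zmym1, Elof1 and Cbx6 (0.06 to 0.07), and those of Vpreb2 were Tmtc4, Dhcr7, Ccdc14, Zfp61 and Pidd1 (0.08 to 0.09). Those of Igll1 A_52_P493519 were Cntln, Nim1k, Mrpl34, Suv39h1 and Atad2 (0.03 to 0.06), and those of Igll1 A_52_P273394 were Sema6a, Zfp280c, Hspb9, B830017H08Rik and Ltb4r2 (0.07 to 0.11). No gene was shared between these lists. Of these genes, Sema6a and Ltb4r2 rose between Bob1 wild-type and Bob1 knockout, by 0.88 and 0.90 (limma adjusted p = 0.0358 and 0.03), and the other 18 did not pass. With slide as a block neither Sema6a nor Ltb4r2 passed (limma adjusted p = 0.386 and 0.369). Sema6a was well above background on only 1 of the Bob1 wild-type arrays, so the size of its rise is uncertain.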

How the data were processed

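Total RNA of 8 cultures was labelled with Cy3 by oligo-dT priming, per the labels' protocols, and read on Agilent 4x44K mouse arrays of 1 colour. The intensity used is the processed signal that the authors deposited, background-subtracted by Feature Extraction 10.5.1.1, per the file headers. A value table that the authors deposited is in log2, with column medians of 9.59. Its exact scale and normalization are not given in the sources used here, limma is named in the submitters' processing notes, and it served as an alternative. Deposited flags, coded as a score of 1 or 0, mark spots that are well above background, saturated or outliers.

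From the scanner files, control spots and outlier spots (71 to 156 per array) were left out, log2 signals were taken relative to each array's 75th percentile, and a probe was tested if, in at least 1 group, both arrays had it well above background. R 4.3.3 and limma 3.58.1 fitted 4 group means on 8 arrays (4 residual degrees of freedom), with all probes in 1 adjustment. The number of arrays limits the precision. The fit was tested on simulated data for Bob1 knockout against Bob1 wild-type (26459 probes). There 47 of 50 probes lowered by 3 on the log2 scale, 12 of 50 lowered by 1 and 24 of 50 raised by 1 were called. With few probes changed, these call rates need not carry over to the real data. Genes were named through RefSeq (27584 of 41174 probes; 7299 kept the file's name), and a gene with several probes was represented by the one with the highest mean level. Named genes are all member probes, list genes past the threshold, a short set fixed whatever its values, the nearest tested neighbours and the 5 most alike. Members, lists and rules were chosen with earlier results of these data known. The alternatives were background correction, scaling, filters, slide and replicate blocks, the samples fitted, single arrays left out and the deposited table. Replicate letters were not taken to pair the samples. The values of 2 genes of the lists are not reported here.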

Additional observations from a re-analysis of the deposited data

Results flagged for a closer look

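The Bob1 effect on Vpreb3 differed from the miR-146a effect by a test of the difference itself. The difference of the effects was -2.834 on the log2 scale for probe A_51_P375789 (limma adjusted p = 0.0193) and -2.443 for probe A_52_P433847 (adjusted p = 0.0163). Both Bob1 knockout arrays were lower than both Bob1 wild-type arrays, while the miR-146a knockout arrays (6.79 and 6.62, and 8.22 and 8.13) lay beside those of BL6 wild-type (6.67 and 6.80, and 8.20 and 8.39). The slide block, no filter on dim probes, the deposited table (first probe only) and leaving out any 1 array of the groups other than Bob1 knockout move these adjusted p-values across 0.05.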

How the results depend on the processing

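The fall of Vpreb3 kept its sign under all alternatives tried. Without single arrays it ran from -3.26 to -2.47 (A_51_P375789) and from -2.86 to -2.27 (A_52_P433847), past the threshold each time (adjusted p up to 0.0228 and 0.0186). With slide as a block A_51_P375789 missed the threshold at -3.01 (limma adjusted p = 0.0559). The upward differences of Vpreb1, Vpreb2 and Igll1 kept their sign too, without single arrays at 0.32 to 0.73, 0.32 to 0.93, 0.20 to 0.70 (A_52_P493519) and 0.547 to 0.996 (A_52_P273394). They passed in 3 cases: Igll1 A_52_P273394 among probes well above background on all 8 arrays (0.77, adjusted p = 0.0465) and with normexp without 15 spots (0.68, adjusted p = 0.0194), and Vpreb2 against the 6 other arrays (0.51, adjusted p = 0.0441).

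The difference of the Bob1 and miR-146a effects on Vpreb3 did not pass with no filter on dim probes (-2.83 and -2.44, adjusted p = 0.0676 and 0.0595), with slide as a block (-2.98 and -2.58), with the deposited table for A_51_P375789 (-2.95, adjusted p = 0.0687), and without any 1 array of the groups other than Bob1 knockout. It passed without either Bob1 knockout array, and over all single arrays left out it ran from -3.23 to -2.44 and from -2.74 to -2.15. For Igll1 A_52_P273394 it passed with normexp without 15 spots (1.09, adjusted p = 0.0264).

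Probes called between Bob1 knockout and Bob1 wild-type numbered 1463, and 481 to 1014 without single arrays, the fewest without Bob1 wild-type replicate A. They were 713 with no filter, 124 with slide as a block, 358 from the 4 arrays alone, 286 within slide 2, 6374 against the 6 others and 5437 with normexp without 15 spots. For the difference of effects the count of 394 became 120 with no filter, 60 with slide as a block, 145 in the deposited table, 1169 with that normexp, and 125 to 310 without single arrays. The 19 probes of the miR-146a comparison became 12 with no filter, 7 among probes above background on all arrays, 1 in the deposited table and 10 to 28 without single arrays. The 9 between wild-type groups became 1 among probes above background on all arrays, 2 in the deposited table and 8 to 57 without single arrays. Of the lists, slide as a block left 2 receptor genes, 0 transcription factors, 0 stage genes and 4 immature and mature B cell genes (with 7, 3, 4 and 15 at an unadjusted p under 0.05). Leaving out single arrays gave 2 to 3, 0 to 1, 2 to 4 and 7 to 11. Where a group was left with 1 array, that array was assumed to vary like the other groups.

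Normexp on all spots gave 0 probes in each of the 4 comparisons (151, 2, 5 and 72 at an unadjusted p under 0.05). There Vpreb3 stood at -2.52 and -2.28 in the Bob1 comparison, and the differences of effects at -2.91 and -2.60. On 4 arrays, 15 spots lay under their local background, and the background mean that normexp fitted there was -2127 to -250 units, against 8.04 to 10.52 on the other arrays, so that fit was not used further. The version without these spots was chosen after seeing the data, as were the comparisons with the 6 other arrays, the separation by scaling and the single-array results of the lists.

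The replicate letters, which are also the sexes, were not taken to pair the samples. The correlation of deviations from the group means was 0.07 to 0.36 over 6 pairs of groups. It was positive in all and above 0.1 in all but that of Bob1 knockout and BL6 wild-type. Positive values are no ground for leaving the letters out, and a part shared by letter or sex was not tested. With a replicate block 2275 probes passed in the Bob1 comparison and 616 in the difference of effects, and no member changed its call. Signal over background does not limit the members, which were above it on all arrays. The number of arrays does. In simulated data 24 of 50 probes raised by 1 on the log2 scale and 12 of 50 lowered by 1 were called. The differences of Vpreb1, Vpreb2 and Igll1 were smaller than 1. Far fewer probes were changed in the simulation than were called in the real comparison, so its call rates need not carry over.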
